A study of Mus musculus with 2 samples.

Results

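The cytosolic ribosomal protein genes encode the proteins of the ribosomes that translate messages in the cytoplasm. Their levels were read from 2 one-color Agilent mouse arrays. One array held stromal cells, sorted as CD45- cells, from lymph nodes of normal mice. The other held CD45- cells sorted from tumor-draining nodes of mice that had received 4T1 mammary carcinoma cells in the mammary gland 2 weeks earlier. The labels name C57BL/6 mice, all female, for the tumor group, and normal mice without a tumor as the control, and give neither the age nor how many animals a sample holds. The 4T1 line was derived from a BALB/c mouse, which is another strain than the host the labels name. Genes were taken by name (Rpl or Rps with a number, or Rplp0 to Rplp2) from non-control spots designed on a RefSeq mRNA. The rule found 83 genes of 37007 on the array, which were measured by 144 probes and 675 spots. Of these, 52 carry an Rpl name and 31 an Rps name. A total of 76 are canonical subunits and 7 are paralogs by name (Rpl3l, Rpl7l1, Rpl10l, Rpl22l1, Rpl36al, Rpl39l and Rps27l). Each group has 1 array, so no difference below has a replicate check, no test was run, and differences are described by their size.

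Ribosomal proteins coat the ribosomal RNA of the small subunit (Rps), which reads the message, and of the large subunit (Rpl), which joins the amino acids. Their mRNAs are among the most abundant in any cell, and most begin with a tract of pyrimidines, the 5′ terminal oligopyrimidine (TOP) tract, through which mTOR and Larp1 govern their translation. In a lymph node, lymphocytes that start to divide are known for making more ribosomes, and stromal cells that expand in a draining node also have to build them.

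Both arrays had usable signal for this family. A probe was called above background where the scanner software marked at least 50% of its spots so, and 81 of the 83 genes passed on both arrays, 50 Rpl and 31 Rps. The remaining 2, Rpl3l and Rpl10l, are described with the paralogs. No member spot was saturated. The members lay at the top of the signal scale, with a median processed signal of 53019 (geometric mean over the arrays), above 99.2% of the genes detected on both arrays. The array files place probes on the mm9 build and do not state exon or UTR.

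The samples also differed in the markers of the cells they held. Of 8 pan-leukocyte markers, 8 were at least 1.5-fold higher in the tumor-draining sample, and their signals summed to 30247 in the normal and 109036 in the tumor-draining sample. Ptprc, which encodes CD45 itself, read 3702 and 17432. Summed signals of T cell markers were 14431 and 59426 (8 of 8 at least 1.5-fold higher), and those of B cell markers 25861 and 58280 (8 of 8). Defining markers of the labelled stroma were present and lower: fibroblastic reticular cell markers summed to 381135 and 137093 (10 of 10 at least 1.5-fold lower), and endothelial markers to 19136 and 2661 (9 of 9). Erythroid markers summed to 164791 and 63291. Plasma cell markers were mixed (3 of 5 at least 1.5-fold higher and 1 lower), and so were myeloid markers (5 of 8 higher and 2 lower). The part of these shifts in the ribosomal protein values was not tested, and with RNA from a bulk sample a change in cell types cannot be told apart from a change in RNA per cell.

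Most ribosomal protein genes read moderately higher in the tumor-draining sample, and by closely similar amounts. After each array was scaled to its 75th percentile, the log2 difference (tumor-draining minus normal) had a median of 0.57 over the 81 detected members, against 0.12 over all 22151 genes detected on both arrays. The interquartile range of the members ran from 0.45 to 0.65, and 77 of 81 were above 0, against 56.4% of all genes, but only 40 of 81 were above 0 under loess on signal level. At least 1.5-fold higher were 36 members, or 44.4%, where the background share of all genes was 24.6%. This excess depended on the scaling: the members' share was below that of all genes under quantile normalization (2.47% and 24.2%), in the authors' deposited table (2.47% and 24.3%), when scaled to the median of detected probes (13.6% and 18.4%) and under loess (0% and 17.2%). No member reached 2-fold higher (background 11.1%). Only 1 of the 81, Rpl39l, was at least 1.5-fold lower (background 22.6%) or at least 2-fold lower (background 15.9%). The 1.5-fold line, 0.58 on the log2 scale, runs through the middle of the members, so their count past it moves readily with the scaling.

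**Figure D1:**
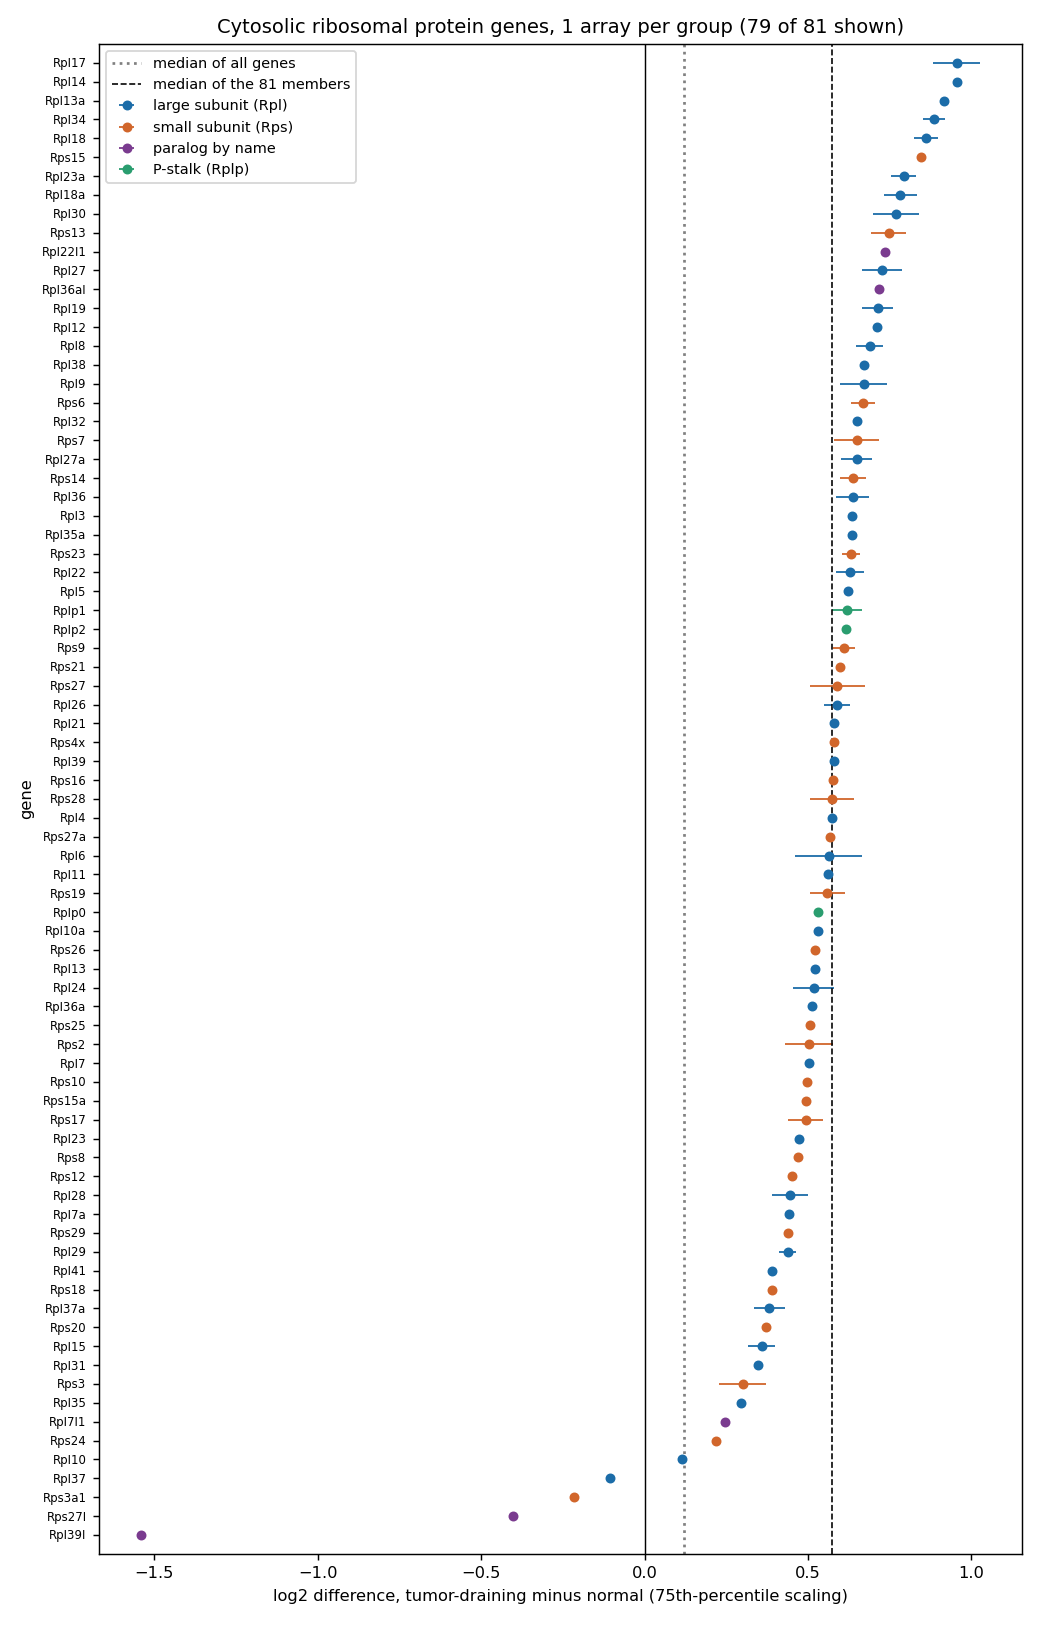
The log2 difference (tumor-draining minus normal, 75th-percentile scaling) of 79 of the 81 members above background on both arrays, ordered by size, with bars for the SD over spots where the probe was printed more than once. Most points sit near the members' median of 0.57, to the right of the all-gene median of 0.12, and Rpl39l stands apart at -1.54; under loess on signal level the members' median is -0.03.

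The error of a value could be read only from copies on the same array. Of the member probes, 59 were printed 10 times and 85 once, and the SD of the difference over the copies of a probe ranged from 0.026 to 0.10. Between different probes of a gene the spread was wider: over the 44 genes with at least 2 probes above background, the median SD was 0.079. Most members therefore could not be ranked against their neighbours in the order. Neither SD holds any variation between mice.

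Differences of the spike-in controls depended on how bright their spots were. These are synthetic RNAs that Agilent's protocol adds in a set mix to each labelling, each printed on 35 spots. The 6 spike-ins with signals between 32.0 and 36650 (geometric mean over the arrays) gave log2 differences from -0.94 to -0.76. At 61677, where the arrays read 74897 and 50790, the difference was -0.50 ± 0.11 (SD, 35 spots). At 155845 it was -0.12 ± 0.066 (SD, 35 spots), with signals of 166254 and 146087. Differences between the arrays for the same added RNA thus shrank somewhere between signals of 36650 and 61677 and were smallest at the top. Whether the member spots of that brightness shrank in the same way was not tested.

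Members were then taken by the same signal ranges. Of the 81, 18 lay between a signal of 10000 and the third brightest spike-in (36650), with a median difference of 0.63, against 0.46 for 688 other genes in that range. The next 31, up to the second brightest spike-in (61677), had a median of 0.62, against 0.42 for 148 other genes. Above it, 28 members had a median of 0.53, against 0.23 for 90 other genes. The members' median was thus above that of other genes in each range, hardly differed between the first and the second, and was lower in the last. In the last range 25% of members and 8.89% of other genes were at least 1.5-fold higher, and in the first 61.1% and 35.8%. The brighter members by the median signal (41 genes) differed by a median of 0.56 and the dimmer (40 genes) by 0.63. Other genes in the range of those brighter members had a median of 0.26 (120 genes).

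**Figure D2:**
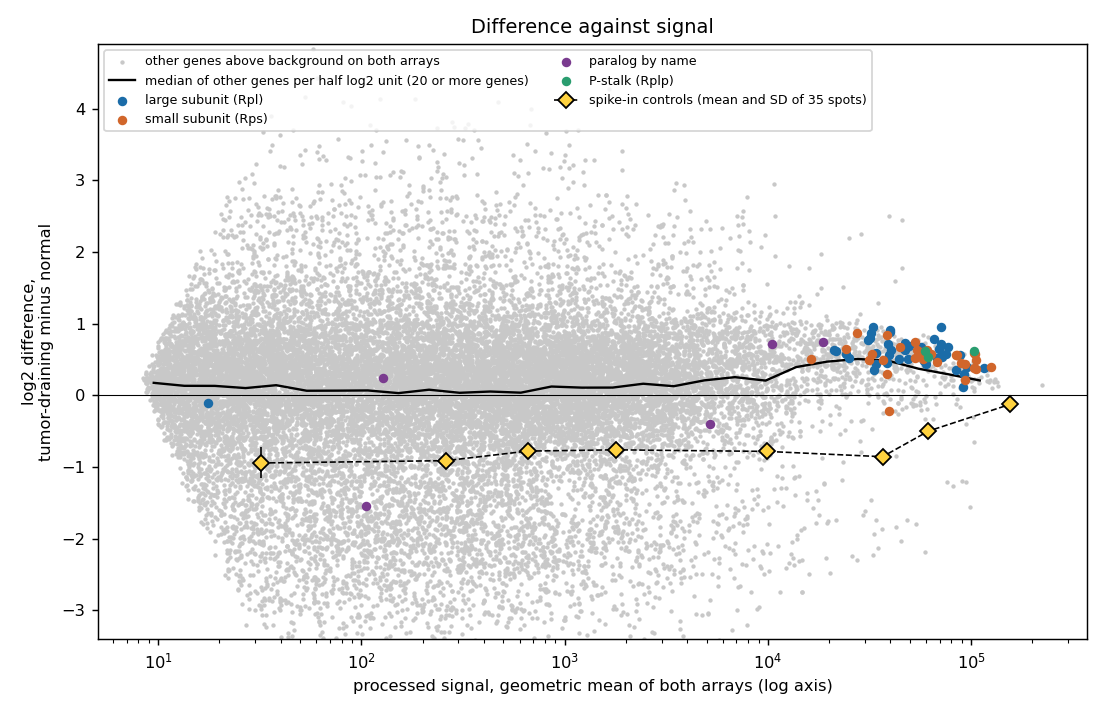
The log2 difference (75th-percentile scaling) against the processed signal, a geometric mean of both arrays on a log axis, for members (colors), other genes (grey, with their median in black) and spike-ins (diamonds, mean and SD of 35 spots); 86 of 22070 other genes lie outside the vertical axis. Spike-ins stay between -0.94 and -0.76 up to a signal of 36650 and reach -0.12 at 155845.

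The subunits had overlapping ranges. The median difference was 0.60 for 50 Rpl genes, with an interquartile range from 0.48 to 0.71, and 0.52 for 31 Rps genes, with one from 0.44 to 0.60. At least 1.5-fold higher were 26 Rpl genes (52%) and 10 Rps genes (32.3%), where the share of all genes was 24.6%. These counts depend on the scaling: over all 81 members the count was 2 under quantile normalization and 0 under loess. Part of the Rps set is brighter: 13 of 31 Rps and 15 of 50 Rpl genes lay above the second brightest spike-in, where their medians were 0.47 and 0.56. In the range below it, between the third and the second brightest spike-in, the medians were 0.60 over 12 Rps genes and 0.63 over 19 Rpl genes. From a signal of 10000 to the third brightest, they were 0.58 over 5 Rps genes and 0.63 over 13 Rpl genes. The Rpl median was thus the higher in each range. The gap between the subunit medians was 0.08, and it was 0.01 when each gene was represented by its probe of middle brightness.

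Among the large subunit genes the highest values belonged to Rpl17, Rpl14, Rpl13a, Rpl34, Rpl18 and Rpl23a. Rpl17, which lines the peptide exit tunnel, read 24218 in the normal and 45018 in the tumor-draining sample, a difference of 0.96 ± 0.072 (SD, 7 spots), and its 3 probes gave 0.94 to 0.96. For Rpl14 (mm9, chr9:120483487-120483546) the signals were 52317 and 97174 and the difference 0.95, from 1 spot. A dimmer Rpl14 probe outside the rule gave 0.78. Rpl13a, which is also known as a translational silencer of inflammatory mRNAs in the GAIT complex, had signals of 29526 and 53390 and a difference of 0.92. These 3 were higher in the tumor-draining sample by just under 2-fold. Rpl34 went from 30078 to 53280 (0.89 ± 0.033, SD, 8 spots) and Rpl18 from 24271 to 42279 (0.86 ± 0.037, SD, 10 spots). Rpl23a, which helps dock the signal recognition particle at the tunnel exit, went from 24556 to 40765, and its 2 probes gave 0.79 and 0.86. The lead of these 6 genes over the member median was kept under all scalings tried, although under loess on signal level their differences were only 0.26 to 0.42.

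At the low end of the large subunit, Rpl10, a protein near the catalytic center that is added last to the subunit, read 89591 and 92852, a difference of 0.11. Rpl35, another protein of the exit tunnel rim, read 84851 and 99817, a difference of 0.30. Both are single spots, brighter than the second brightest spike-in. A dimmer Rpl35 probe outside the rule gave 0.42. Under loess, Rpl10 was at -0.54 and Rpl35 at -0.36, still below the members' median. The dimmest of the 81 members detected on both arrays was Rpl37, whose probe read 18.7 and 16.6, a difference of -0.11. With so little signal from its 1 probe, Rpl37 gives no usable measure of this gene.

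Rps15, a small subunit protein near the decoding site and among the highest of its subunit, read 29451 and 50706, a difference of 0.85. The lowest values of canonical small subunit genes were those of Rps3a1 (-0.22), Rps24 (0.22) and Rps3 (0.30). For Rps3, which sits at the mRNA entry and is also known from DNA repair and NF-κB signalling, the signals were 35425 and 41799 and the SD over 10 spots was 0.071, so its low value was repeated across copies of the probe. Rps18, the brightest member, read 111704 and 140383, a difference of 0.39. Rps3 and Rps18 were below 0 under loess (-0.25 and -0.30) and above it under spike-in scaling (1.12 and 1.21). That scaling took its shift (-0.82) from the 6 spike-ins up to a signal of 36650, far below that of Rps18 (125225).

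The P-stalk proteins, which recruit the elongation factors to the large subunit, had similar values. Signals of Rplp0 were 52009 and 72004 (difference 0.53), those of Rplp1 48663 and 71612 (0.62 ± 0.046, SD, 8 spots), and those of Rplp2 85418 and 125569 (0.62). They ran from 0.53 to 0.62, which is about the spread between probes of 1 gene, and under loess from -0.08 to 0.01. For Rplp1 the other RefSeq probe gave 0.67, while a brighter probe outside the rule (89579 and 100669, 1 spot) gave 0.23.

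Of the members named for known roles, 7 had differences between 0.56 and 0.67 by their brightest RefSeq probe. Rps6, the subunit protein phosphorylated by the S6 kinases below mTOR, read 36071 and 54967, a difference of 0.67 ± 0.036 (SD, 8 spots). Rpl5 read 17759 and 26213 (0.62) and Rpl11 read 74082 and 104784 (0.56). Together they bind Mdm2 and stabilize p53 when ribosome assembly is disturbed. A brighter probe of Rpl5 outside the rule gave 0.75 (25972 and 41863, 10 spots). Rpl22, known for its need in T cell development, read 17417 and 25789 (0.63 ± 0.042, SD, 10 spots). Rpl38, linked to the translation of Hox mRNAs, read 62267 and 95028 (0.67). Rps19, the gene most often mutated in Diamond-Blackfan anemia, read 71486 and 100962 (0.56 ± 0.053, SD, 10 spots). Its other RefSeq probe gave 0.67. Probes of Rps19 outside the rule gave 0.94 (35866 and 65941, 10 spots) and, at a weak signal, 0.30 (24.6 and 29.1). Rps27a, which is made as a fusion with ubiquitin, read 70333 and 99960 (0.57). Under loess these 7 ranged from -0.09 to 0.14. Rpl13a and Rps3, described above at 0.92 and 0.30, lay farther from the member median of 0.57.

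The paralogs differed more among themselves than the canonical genes did. Canonical members ran from -0.22 to 0.96 with an SD over genes of 0.20, and the 5 paralogs detected on both arrays from -1.54 to 0.74 with an SD of 0.95. Rpl39l, a paralog of the tunnel protein Rpl39 known best from testis, read 183 in the normal and 60.3 in the tumor-draining sample, a difference of -1.54. Rpl39 itself read 62928 and 90122, a difference of 0.58. Rpl39l was the lowest member under every scaling, between -1.71 and -0.72. Its single probe shares no run of more than 6 bases with the probes of Rpl39.

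Rps27l, a p53-inducible paralog of Rps27, was also lower. Its probes read 6066 and 4394 (-0.40) and 3329 and 2141 (-0.58), while Rps27 read 86117 and 124249 (0.59). The Rps27 probe is placed on another chromosome than its gene, so that value is uncertain in its source. Relative to the member median Rps27l lay between -0.98 and -0.61 across scalings, but its difference was above 0 (0.42) when scaled to the spike-ins. In the other direction, Rpl22l1 read 14826 and 23679 (0.74) and Rpl36al 8387 and 13206 (0.72), beside 0.63 for Rpl22 and 0.51 for Rpl36a. Rpl7l1 was dim, at 120 and 137 (0.25). Rpl3l, known from muscle, was above background in the normal sample alone, at 15.7 against 7.4, from 1 spot per array. Against the lowest signal that counted as above background in the tumor-draining sample, it was at least 1.82-fold lower there with percentile scaling. With another background correction (normexp) the log2 difference of Rpl3l was only -0.089, so this bound did not hold across the settings. Rpl10l, known from testis, was not above background on either array (2.91 and 3.03).

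Several genes had probes that disagreed, and Rps24 most of all. Rps24 makes several mRNAs that differ in their last exons. The array carries 3 RefSeq probes for it, each on 1 spot, and the array files list all 3 RefSeq mRNAs for the first and last of them and a single mRNA, transcript variant 1, for the middle one. Their mm9 positions are chr14:25311190-25312666, chr14:25312695-25315015 and chr14:25315021-25315080, on the plus strand. The first 30 of the 60 bases of each are shown because the middle one separates the variants, in lower case with no base marked.
Rps24 probe for 3 mRNAs, upstream: tggccattatgagaagaaaaagacctcccg
Rps24 probe for variant 1: aatgttggtgctggcaaaaagtgagtggag
Rps24 probe for 3 mRNAs, downstream: ttgatgttttgctgtgatgtgcagatttct

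The upstream Rps24 probe read 19869 in the normal and 31499 in the tumor-draining sample, a difference of 0.73. The downstream probe read 88356 and 98527, a difference of 0.22. The variant 1 probe read 60020 and 17369, a difference of -1.73, or 3.31-fold lower. It was thus the member probe with the lowest difference, in a gene whose shared probes were higher. Under the scalings tried the variant 1 probe lay between -2.26 and -0.91, and the upstream probe between 0.21 and 1.55. The downstream probe was below 0 under loess (-0.44). The difference between the variant 1 and the upstream probe was -2.45, or 5.48-fold, and it lay between -2.48 and -2.34 over the settings that scale probes unequally. Each of these is a single spot per array.

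Rps3a1, the lowest canonical member by its brightest probe, was a second case. That probe (chr3:85941875-85941934, minus strand) read 43359 and 35770, a difference of -0.22. The other Rps3a1 RefSeq probes read 18078 and 28032 (0.69 ± 0.043, SD, 10 spots) and 24548 and 37569 (0.68). A further probe on the array, designed on another cDNA and so outside the rule (chr3:85941887-85941946), overlaps the low one by 48 bases. The 2 differ there by 1 base, G21A, counted from 1 at the 5′ end of the low probe, with the base of the low probe first. Both are shown over the same 30 bases, with that base in capitals.
Rps3a1 RefSeq probe: gtccaagaatcagtGtaaaatccagatttt
Rps3a1 second probe: gtccaagaatcagtAtaaaatccagatttt

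The second probe read 37891 and 55825, a difference of 0.62. Probes that overlap except for their ends and 1 base thus differed by opposite signs, and 3 of the 4 Rps3a1 probes lay near the family's median. The low value of Rps3a1 therefore belongs to 1 probe, and the part of the base that differs was not tested. It was above 0 when scaled to spike-ins (0.60).

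Rps9 differed the other way. Its probe at transcript position 155 (chr7:3656257-3656316) read 10836 and 32741, a difference of 1.66, or 3.15-fold, from 1 spot. The probe at position 490 (chr7:3658287-3658346) read 47825 and 69931, a difference of 0.61 ± 0.033 (SD, 9 spots). Rps24 and Rps9 were the genes whose probes differed by more than 1 on the log2 scale.

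Smaller gaps, picked out after their values were seen, ran with brightness. Rps18 gave 0.83 and 0.86 on its dimmer probes and 0.39 on the brightest. Rps15a gave 1.03 ± 0.050 (SD, 10 spots) on a probe reading 19339 and 37882, and 0.50 on its brightest. Over the 40 genes with at least 2 probes over a signal of 10000, 16 had a probe above the second brightest spike-in, and in 13 of these the brightest probe gave a smaller difference than the dimmest. Brightest minus dimmest had a median of -0.11 over the 16 genes. Of the 24 genes whose probes were all dimmer, 16 went that way, with a median of -0.050. The brightest probe was also the one nearest the 3′ end in 32 of the 40 genes, so brightness and position along the mRNA cannot be told apart.

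**Figure D3:**
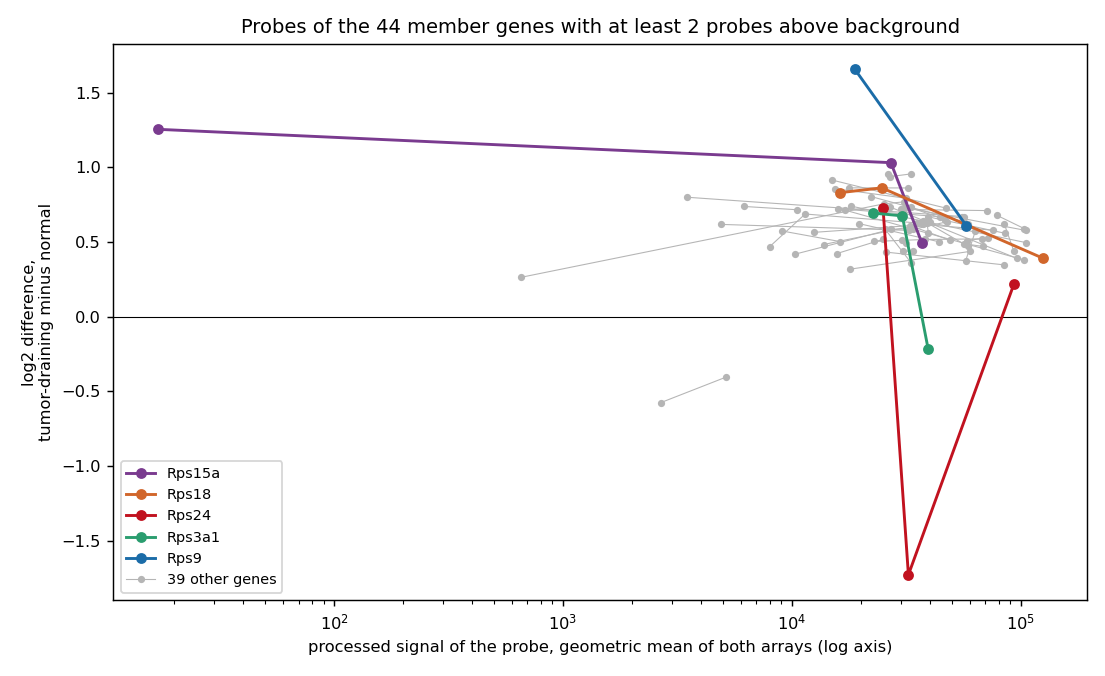
The log2 difference (75th-percentile scaling) of each probe against its processed signal (geometric mean, log axis), with lines joining the probes of a gene, for the 44 genes with at least 2 probes above background on both arrays. Rps24 has 1 probe at -1.73 between probes at 0.73 and 0.22, and Rps9 spans 0.61 to 1.66.

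For 7 probes of 4 genes (Rpl13, Rpl36, Rps27 and Rps29) the array files give a position on another chromosome than the gene's own. Processed copies of ribosomal protein mRNAs are common in the mouse genome, and such a probe may read either. The Rpl13 probe placed on chromosome 4 gave 0.52, beside 0.50 and 0.52 for the probes at the gene. The Rpl36 probe placed on chromosome X gave 0.80, beside 0.64. Every probe of Rps27 and Rps29 is so placed, and these are reported as uncertain in their source. Only chromosomes were compared, so a copy on the gene's own chromosome would be missed. An Rps2 probe at chr17:42864841-42864900, far from the other at chr17:24857583-24857642, gave 0.57 beside 0.50.

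Other lists of translation genes also had medians above 0, and their counts past 1.5-fold are read against the all-gene share of 24.6%. Ribosomal proteins whose names fall outside the pattern (such as Rpsa, Fau and Rack1) had a median difference of 0.43, from Fau (0.28) to Rpsa (0.71), and 1 of 4 was at least 1.5-fold higher, a share near that of all genes. Elongation factors had a median of 0.49, from Eef1d (0.16) to Eef1b2 (0.72), with 2 of 5 past 1.5-fold. Other TOP mRNAs had a median of 0.56 and 3 of 6 past it, from Hnrnpa1, an RNA-binding protein (0.18), to the histone chaperone Nap1l1 (6358 and 13130, 1.11). Initiation factors were more mixed, with a median of 0.25 and 6 of 28 past it, a share below that of all genes, from Eif4h (-0.33) to Eif2s3x (181 and 408, 1.23). Against these stood the mitochondrial ribosomal proteins, which serve the ribosomes of mitochondria: 77 were above background, with a median of 0.05, from Mrpl17 (-0.67) to Mrpl19 (0.63), with 3 higher and 2 lower by at least 1.5-fold. Their median signal was 1476, against 53019 for the cytosolic members, so brightness also differed. Other genes at or above a signal of 10000 had a median difference of 0.42. Under loess the medians of these lists were -0.22, -0.08, 0.13, -0.09 and -0.16, in the order given, so all but the other TOP mRNAs were below 0, and under quantile normalization the elongation factors also were (-0.01).

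Genes that build ribosomes are dimmer, with median signals of 1999 for assembly factors and 1002 for RNA polymerase I, far below the brightest spike-ins. Ribosome assembly factors had a median difference of 0.56, and 9 of 22 were at least 1.5-fold higher, while 0 were lower by that much. The highest was Nop56, a core protein of the small nucleolar RNPs that methylate ribosomal RNA (2890 and 5972, 1.11), and the lowest Rrs1 (-0.05). Subunits and factors of RNA polymerase I, which makes the ribosomal RNA, had a median of 0.36 and 2 of 7 past 1.5-fold, a share close to the 24.6% of all genes, from Polr1d (0.07) to Polr1b (107 and 200, 0.96). Both lists kept a median above 0 under each scaling, at 0.30 and 0.16 under loess, where the all-gene median was -0.07.

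Growth signalling genes showed no common direction. The list had a median of 0.25, with 3 of 12 higher by 1.5-fold or more (25%, all genes 24.6%) and 1 lower (all genes 22.6%). Above 0 were 7 genes and below it 5, namely Eif4ebp1, Rptor (-0.47), Akt1s1 (-0.38), Tsc2 (-0.33) and Mtor (-0.28). Scaled to spike-ins, Rptor, Akt1s1, Tsc2 and Mtor were above 0 (0.35 to 0.54). Myc, a transcription factor that drives ribosome production, read 1918 and 3685 (2.01-fold higher), and Larp1, the TOP mRNA-binding protein, read 3475 and 5403 (a log2 difference of 0.70). Eif4ebp1, an inhibitor of cap-dependent initiation, read 2043 and 884 (-1.15). These values rest on 1 array a group, beside leukocyte markers that differed by more. The directions of Myc, Larp1 and Eif4ebp1 were the same under each scaling, with Eif4ebp1 at -0.33 when scaled to spike-ins.

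**Figure D4:**
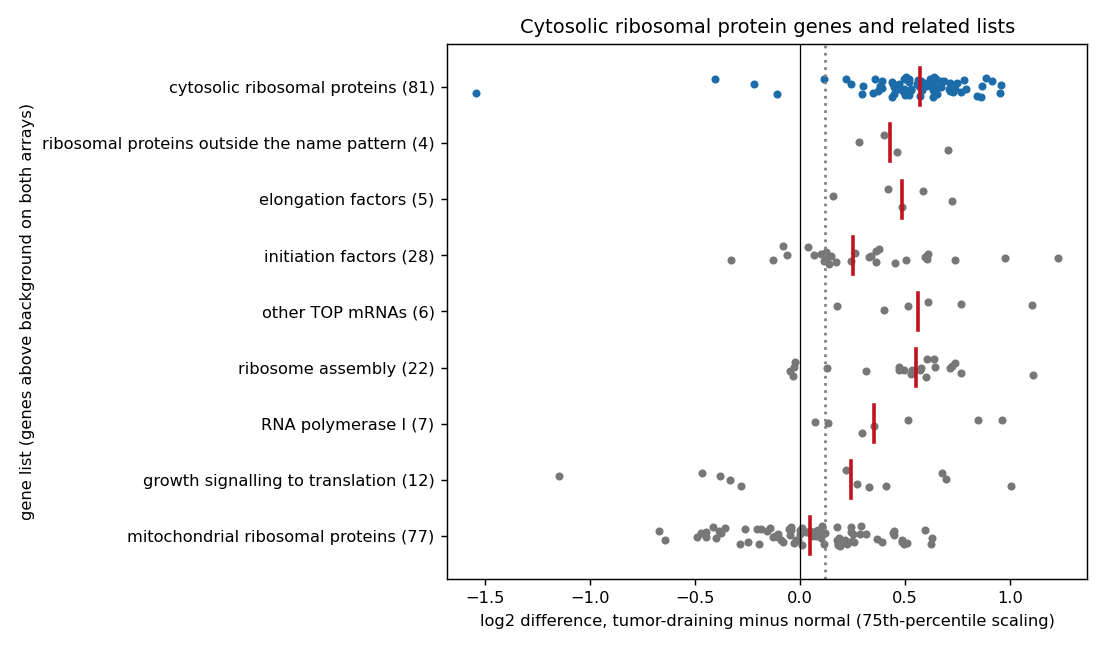
The log2 difference (75th-percentile scaling) of each gene above background on both arrays, by list, with the list's median in red, 0 as a solid line and the all-gene median of 0.12 dotted. The cytosolic ribosomal proteins center on 0.57 and the mitochondrial ones on 0.05, values that were -0.03 and -0.16 under loess.

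Start sites were examined because members had similar differences and most are known TOP genes. RefSeq promoter sequences on GRCm38.p6 were listed for 63 of the 83 members. The letters CTTTC, searched on the transcribed strand from 20 bases before to 20 bases after the start, occurred in 19 of these 63 genes (30.2%), in 3 of 69 mitochondrial ribosomal protein genes (4.35%) and in 6.44% of all 27025 genes listed. On the other strand, read as GAAAG, the shares were 6.35%, 4.35% and 5.67%. The 19 genes with the letters, all above background, had a median difference of 0.57 and the 42 without them, of those above background, 0.56, so the match did not separate members by their difference. A match is only a description. The letters are not the TOP tract itself, and the Rpl14 window, which lacks them, also has pyrimidines at the start. The split by letters is therefore no split by TOP tract, and a link of that tract to the differences was not tested. Windows of 40 bases around the start are shown for 3 members with the letters and differences from 0.45 to 0.67. Rpl39l, which has them and was the lowest, and Rpl14, which lacks them and was among the highest, are also shown. In the Rpl39l and Rps27 windows the letters begin at bases 15 and 13, before the start. The letters CTTTC are in capitals at their first occurrence.
Rpl38 (chr11:114668560-114668599, plus strand): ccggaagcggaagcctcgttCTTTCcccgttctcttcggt
Rpl28 (chr7:4792945-4792984, plus strand): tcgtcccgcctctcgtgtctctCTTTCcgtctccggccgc
Rps27 (chr3:90213629-90213668, minus strand): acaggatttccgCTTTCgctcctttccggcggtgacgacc
Rpl39l (chr16:10170208-10170247, plus strand): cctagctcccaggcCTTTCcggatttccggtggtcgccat
Rpl14 (chr9:120571497-120571536, plus strand): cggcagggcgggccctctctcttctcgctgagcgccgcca

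Beside these, the differences were 0.67 for Rpl38, 0.45 for Rpl28, 0.59 for Rps27, -1.54 for Rpl39l and 0.95 for Rpl14. The Rps27 value comes from a probe placed on another chromosome than the gene.

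How far the family stood above other genes depended on the scaling. With all genes beside them, the member and all-gene medians were 0.57 and 0.12 with the 75th percentile, 0.55 and 0.08 with another background correction (normexp), 0.42 and -0.04 when scaled to the median of detected probes, and 1.39 and 0.94 when scaled to the spike-ins. In these 4 settings the members lay about 0.45 above all genes. Scaling to the median or to the spike-ins shifts every gene equally, so these settings repeat the 75th-percentile gap by construction. Quantile normalization gave 0.13 and 0.11, values from the authors' deposited table were 0.19 and 0.12, and loess on signal level gave -0.03 and -0.07. Quantile normalization adjusts values by signal rank and loess by signal level, so by construction they take out a shift that bright genes share. Members make up 77 of the 1003 genes above a signal of 10000. The order within the family changed too, with 21 members above the member median in all 7 settings, 23 below it in all 7 and 37 on both sides or at it. Of these 7, the 75th-percentile, median and spike-in settings share the same order by construction. At the ends, Rpl17, Rpl14 and Rpl13a stayed 0.23 to 0.47 above the member median in each, and Rpl39l, Rps27l and Rps3a1 lay between -2.11 and -0.61 relative to it.

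**Figure D5:**
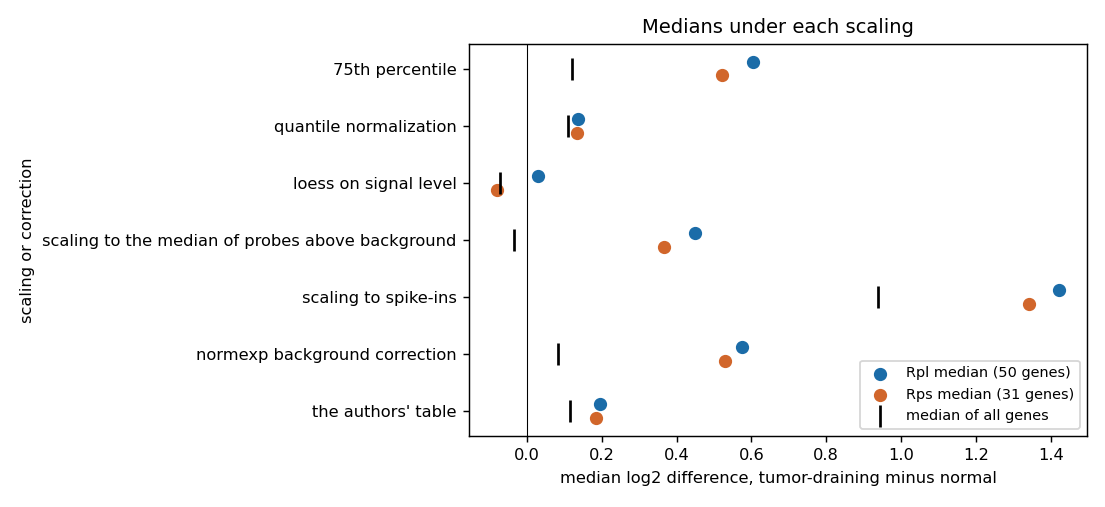
Median log2 difference (tumor-draining minus normal) of the Rpl (50 genes), the Rps (31 genes) and all genes above background on both arrays, under each scaling or correction. With the 75th percentile Rpl and Rps sit at 0.60 and 0.52, well above the all-gene median of 0.12, and under loess at 0.03 and -0.08, beside -0.07.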

How the data were processed

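RNA of the sorted cells was amplified and Cy3-labeled for 2 one-color arrays, 1 per group, per the labels' protocols. Intensities in the deposited scanner files are linear and already background-subtracted by Agilent's Feature Extraction (12.0.3.1 per the file headers; 10.7, beside limma, per the submitters' processing notes). A value table deposited by the authors is on a log2 scale. Its columns share their lowest and highest value, have medians of 4.85 and 4.86 and correlated with the log2 processed signals at 0.9997 and 0.9999, and its steps are not given in the sources used here.

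Each spot's log2 processed signal had the log2 of its array's 75th percentile (59305 spots, controls excluded) subtracted (374 normal, 358 tumor-draining). Spots marked as non-uniform or outliers were left out (98 and 101), spots of a probe averaged, and a gene represented by its brightest probe. Detection required the software's mark on 50% or more of that probe's spots. Probes were named through RefSeq accessions (32994), symbols (10224) or synonyms (520) of GRCm38.p6, or by the file (12867). Probes of member genes designed on other transcripts were left out of all-gene values. The script was tested on simulated data. Python 3.11.15, R 4.3.3 and limma 3.58.1 were used, with loess (span 0.3) and normexp (offset 50) among the alternatives.

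Members, lists and signal ranges were chosen with earlier results of these data known. Named members were the 8 highest and 8 lowest, the P-stalk, the paralogs, those with discordant or undetected probes, the brightest and dimmest, and 9 with known roles. A few genes are not reported by name here. Arrays give no counts, and their number limits the precision. Both arrays lie on 1 slide, per the file headers.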

Additional observations from a re-analysis of the deposited data

How the results depend on the processing

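No paired analysis was possible because each group has 1 array. With no replicates, values were compared with the median SD between probes of a member gene, 0.079, which is a spread of single genes and no error of a median over many. The members' median, 0.57, was 0.13 under quantile normalization, 0.19 in the authors' table, 0.42 when scaled to the median of detected probes, 1.39 when scaled to spike-ins and -0.035 under loess. The count at least 1.5-fold higher, 36, was 2, 2, 11, 79 and 0 under these 5, in that order, and 0 at 2-fold. The all-gene shares under these 5 were 24.2%, 24.3%, 18.4%, 66.9% and 17.2%, so the members' share was above that of all genes in 1 of these 5, the scaling to spike-ins. The shift of that scaling came from the 6 spike-ins up to a signal of 36650, which are dimmer than most members. Brighter spike-ins differed by less (-0.50 and -0.12). Brighter minus dimmer members, -0.066, was 0.041 under quantile normalization, -0.16 under loess, 0.078 in the authors' table, 0.052 without the brightest 25% of members and 0.085 as a slope per log2 unit of signal, although over the 77 members above a signal of 10000 the correlation across genes was negative (r = -0.32), so this difference has no stable sign. Rpl minus Rps, 0.08, lay between 0.0026 and 0.11 under all alternatives, so its size is not settled. In 2 alternatives chosen after seeing the data, members under the third brightest spike-in had a median of 0.59, with 11 of 22 at least 1.5-fold higher, and leaving out paralogs gave 0.58 and 34. Of the named members at least 1.5-fold higher, Rplp2 and Rps27 were below 0 under loess (-0.055 and -0.082). Having 1 array per group limits all of these values.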

Other observations

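The arrays also carry 38 probes that match the family by gene or name but that the rule left out, namely Ensembl models, cDNAs, a predicted mRNA and a noncoding RNA. Of these, 35 probes of 30 genes were above background on both arrays. The 21 with a signal of at least 1000 resembled the family, with a median difference of 0.52, and 1 of them was at least 2-fold higher. The 14 dimmer ones had a median of 1.06, and 8 were at least 2-fold higher, against 11.9% of 16029 other genes of that brightness, whose median was 0.08. These brightness classes were set after the values were seen.

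Both further Rps9 models were higher, at 411 and 841 (1.09) and at 69.7 and 247 (1.89), beside 1.66 for the RefSeq probe near the start of Rps9. An Rps29 model read 13.4 and 80.3, 6.25-fold higher, from a weak signal. Dim models of Rpl6 (461 and 1260, 1.51), Rps13 (221 and 595, 1.49), Rps12 (198 and 506, 1.42) and Rpl7 (382 and 877, 1.26) were also higher than the main probes of their genes. Rps4l, a noncoding relative of Rps4x, went the other way, at 1211 and 266 (-2.12), while Rps4x read 27318 and 39131 (0.58). All are single spots.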
